A study of Mus musculus with 12 samples.

Results

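The 8 genes described here are Ppara, which encodes the nuclear receptor PPAR alpha, and 7 genes known as its targets in the liver: Cpt1a, Ehhadh, Acadm, Pdk4, Fgf21, Angptl4 and Vnn1. They were taken by symbol from a table of 55450 mouse genes, and each symbol occurred once. The table holds total RNA sequencing of brain and liver from male mice aged 7 to 9 weeks. The mice either carried intact Vaultrc5, which encodes a short vault RNA, or were Vaultrc5-/-. Each of the 4 groups (wild-type brain, knockout brain, wild-type liver and knockout liver) had 3 libraries, 12 in all. The titles call the control libraries flx and the genotype label calls them wild-type. The labels used here do not say how the allele was made, what the mice had been fed or when tissue was taken. They also do not say whether a brain and a liver library with the same number came from the same mouse, or whether libraries of a group came from separate mice, so the p-values below measure the spread between libraries.

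PPAR alpha is a ligand-activated transcription factor of the nuclear receptor family. It binds fatty acids and pairs with a retinoid X receptor, and the pair binds direct repeats of a hexamer close to AGGTCA with 1 base between the copies. In the liver it is best known for raising fatty acid oxidation and ketone body formation during fasting. Its targets cover the import of fatty acids into mitochondria (Cpt1a), their oxidation in mitochondria (Acadm) and peroxisomes (Ehhadh), the sparing of pyruvate (Pdk4), secreted regulators of energy and lipid supply (Fgf21, Angptl4) and the turnover of pantetheine (Vnn1).

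The targeted gene matched the labels. Vaultrc5 had 33 to 48 counts in the wild-type liver libraries, 1 to 4 in the wild-type brain libraries and 0 in all knockout libraries. Counts per library summed to 14844937 to 18567362 in brain and to 23247425 to 27155478 in liver. Summed hepatocyte markers lay between 51584 and 76116 CPM (counts scaled to a common library size within a tissue) in liver. Summed neuron markers lay between 4299 and 5749 CPM in brain and between 19.4 and 26.2 CPM in liver. Knockout liver library 2 stood apart from the other livers, with a mean correlation of 0.973 to them over 13327 genes, where the other liver libraries had 0.980 to 0.984. Knockout brain library 3 had the lowest value in brain, 0.964 against 0.971 to 0.975. These libraries are treated again beside the results they touch.

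The 250 bases before the RefSeq transcription start (build GRCm38.p6, gene strand) were available for 6 of the 8 genes: Ppara, Cpt1a, Ehhadh, Acadm, Pdk4 and Fgf21. The windows of Acadm and Ehhadh are shown because these mitochondrial and peroxisomal enzyme genes were both lowest in knockout liver 2. Pdk4 was lowest in that liver too, but its window is not shown. The window of Fgf21 is shown because this gene had the lowest level of the 8 genes per length in liver. Capitals mark the only match, in these 6 windows, to 2 AGGTCA hexamers in direct repeat with 1 base between them, searched on either strand with up to 3 mismatches in the 12 hexamer bases.
Acadm, chr3:153944644-153944893, minus strand: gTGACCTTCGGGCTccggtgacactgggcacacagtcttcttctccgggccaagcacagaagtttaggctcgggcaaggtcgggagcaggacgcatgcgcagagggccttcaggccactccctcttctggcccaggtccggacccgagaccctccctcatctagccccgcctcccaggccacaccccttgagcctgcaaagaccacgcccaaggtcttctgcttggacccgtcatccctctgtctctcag
Ehhadh, chr16:21787835-21788084, minus strand: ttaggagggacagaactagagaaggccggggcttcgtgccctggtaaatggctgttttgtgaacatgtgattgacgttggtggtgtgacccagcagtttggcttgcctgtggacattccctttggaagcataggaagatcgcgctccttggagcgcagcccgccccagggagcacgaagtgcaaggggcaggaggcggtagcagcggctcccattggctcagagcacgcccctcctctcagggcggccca
Fgf21, chr7:45615491-45615740, minus strand: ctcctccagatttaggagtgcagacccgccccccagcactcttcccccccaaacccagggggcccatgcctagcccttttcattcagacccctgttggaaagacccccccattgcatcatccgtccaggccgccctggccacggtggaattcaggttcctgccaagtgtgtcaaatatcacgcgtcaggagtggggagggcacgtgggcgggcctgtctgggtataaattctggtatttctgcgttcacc
The Acadm match lies 249 bases before the start, on the strand opposite to the gene, and carries 3 mismatches. A repeat of this kind was found in 21.3% of the 32851 windows of this length, beside 1 of the 6 windows here. An exact AGGTCA on either strand was present in the Acadm and Cpt1a windows and in 14.0% of all windows; the exact hexamer of Acadm overlaps its repeat. The windows of Acadm and Ehhadh each held 12 CpG dinucleotides, that of Fgf21 held 9, and those of Ppara, Cpt1a and Pdk4 held 27, 14 and 6, against a median of 6 over all windows. The letters in a window do not show whether a factor binds there.

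Expression was read first as a level per gene length, CPM divided by the length of the merged exons in kilobases, since raw CPM cannot be compared between genes. In wild-type liver Ehhadh was highest at 101 ± 17.7 CPM per kilobase (SD, n = 3). Acadm (48.8 ± 2.13), Cpt1a (43.4 ± 8.07) and Ppara (41.7 ± 10.5) followed with ranges that overlapped. Angptl4 came next at 23.4 ± 13.3 CPM per kilobase, and its libraries overlapped both Ppara above and Vnn1 below (12.7 ± 3.04). Pdk4 (1.51 ± 0.364) and Fgf21 (1.08 ± 0.706) were lowest and did not differ beyond their spread.

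The order in wild-type brain was another. Acadm led at 4.84 ± 0.423 CPM per kilobase (SD, n = 3), followed by Cpt1a (3.41 ± 0.645) and Pdk4 (2.63 ± 0.471), whose ranges overlapped each other. Ehhadh stood at 0.805 ± 0.0669, Ppara at 0.575 ± 0.0244 and Angptl4 at 0.312 ± 0.0770 CPM per kilobase, each apart from its neighbours. Vnn1 (0.0709 ± 0.0211) and Fgf21 (0.0193 ± 0.0334) rested on 9 and 1 counts over 3 libraries and could not be ordered.

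**Figure D1:**
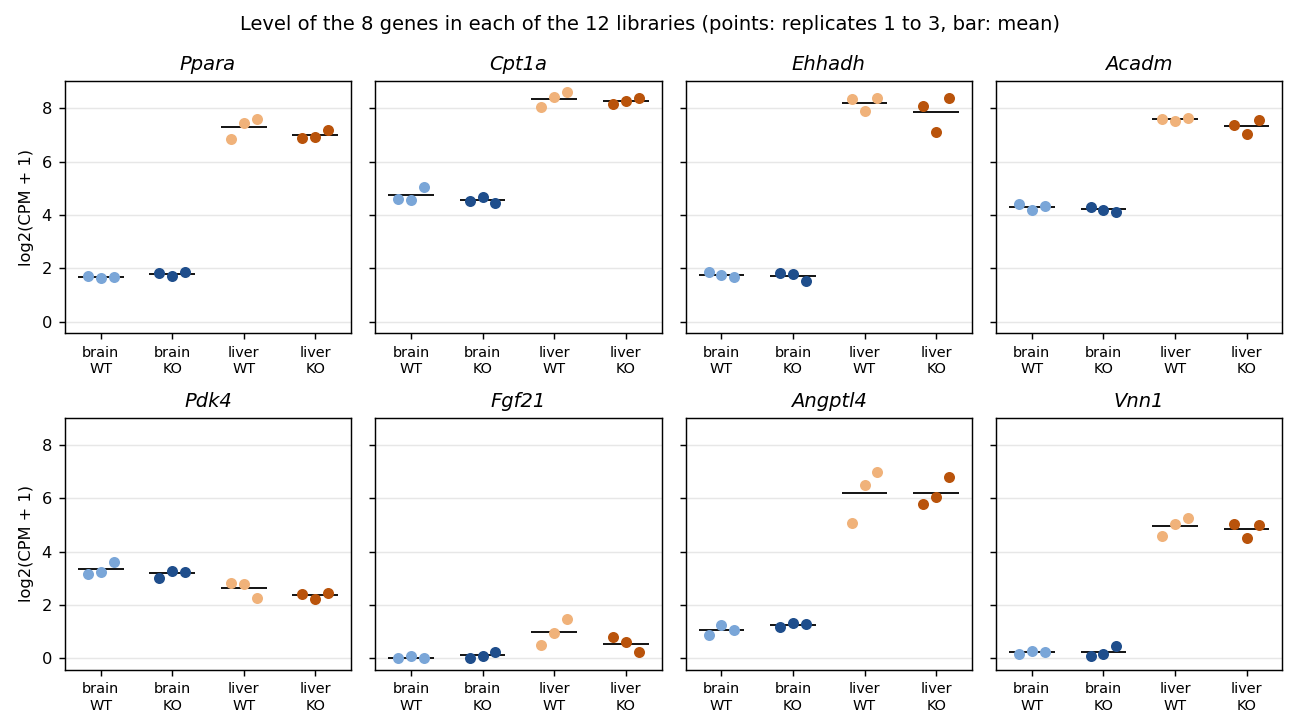
Level of each of the 8 genes on a log2(CPM + 1) axis, with CPM scaled within each tissue; points are the 3 libraries of a group in the order of their replicate numbers, and the bar is their mean. For all genes but Pdk4 and Fgf21 every liver library sits above every brain library (Fgf21 is at 0.170 CPM in knockout liver 3 and 0.182 CPM in knockout brain 3), and wild-type and knockout libraries overlap for every gene in either tissue.

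Ppara (chromosome 15, 85734983 to 85802819, plus strand, GRCm38) is the receptor gene itself. In liver it measured 115, 173 and 192 CPM in wild-type libraries 1, 2 and 3 and 117, 120 and 147 CPM in knockout libraries 1, 2 and 3. The lowest and the highest liver were both wild type, so the groups overlap. The fitted knockout effect in liver was -0.32 ± 0.20 (log2 fold change ± SE; edgeR quasi-likelihood test, Benjamini-Hochberg adjusted p = 0.992), and it ran from -0.51 to -0.17 with 1 library left out. In brain the receptor measured 2.15 to 2.31 CPM in the wild type and 2.24 to 2.66 CPM in the knockout, resting on 37 to 44 counts per library.

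Cpt1a (chromosome 19, 3322334 to 3385733, plus strand) encodes the liver form of carnitine palmitoyltransferase, which commits long-chain fatty acids to mitochondrial entry. It measured 265, 343 and 387 CPM in wild-type livers 1 to 3 and 285, 310 and 338 CPM in knockout livers 1 to 3. Every knockout value lies inside the wild-type range, and the fitted effect was -0.09 ± 0.15 (log2 ± SE, edgeR adjusted p = 0.992). In brain its levels were 23.6, 22.8 and 31.7 CPM in the wild type and 22.1, 24.8 and 20.8 CPM in the knockout, with a fitted effect of -0.20 ± 0.15 (edgeR adjusted p = 1.000). The wild-type brain mean is raised by library 3, and the brain effect ran from -0.28 to -0.03 with 1 library left out.

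Ehhadh (chromosome 16, 21761287 to 21787807, minus strand) encodes the peroxisomal bifunctional enzyme that hydrates and dehydrogenates enoyl-CoA. Its liver levels were 324, 240 and 338 CPM in the wild type and 275, 138 and 333 CPM in the knockout. Knockout liver 2 is the only library under 200 CPM, and knockout liver 3 is level with wild-type livers 1 and 3. The fitted effect was -0.27 ± 0.33 (log2 ± SE, edgeR adjusted p = 0.992) and 0.015 without knockout liver 2. Brain held 2.22 to 2.61 CPM in the wild type and 1.88 to 2.57 CPM in the knockout. A small nuclear RNA gene, Gm24898, lies on the opposite strand within the gene and shares 0 exon bases with it.

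Acadm (chromosome 3, 153922357 to 153944632, minus strand) encodes the medium-chain acyl-CoA dehydrogenase of mitochondria. Wild-type livers measured 193, 182 and 198 CPM and knockout livers 166, 130 and 188 CPM. As for Ehhadh, the lowest value belonged to knockout liver 2, and knockout liver 3 lay within the wild-type range. The fitted effect was -0.24 ± 0.14 (log2 ± SE, edgeR adjusted p = 0.992), and -0.11 without knockout liver 2. Brain levels ran from 17.1 to 20.2 CPM in the wild type and from 16.4 to 18.8 CPM in the knockout.

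Pdk4 (chromosome 6, 5483351 to 5496309, minus strand) encodes a kinase that switches off pyruvate dehydrogenase. Liver levels were low, at 6.08, 5.96 and 3.81 CPM in the wild type and 4.36, 3.70 and 4.46 CPM in the knockout, on 87 to 162 counts per library. Wild-type livers 1 and 2 were above every other liver, but wild-type liver 3 was within the knockout range. The fitted effect was -0.34 ± 0.21 (log2 ± SE, edgeR adjusted p = 0.992). Brain held 8.07, 8.53 and 11.1 CPM in the wild type and 7.18, 8.68 and 8.54 CPM in the knockout.

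Fgf21 (chromosome 7, 45613886 to 45615490, minus strand) encodes a hormone that the liver releases in fasting and other stress. It gave 10, 25 and 45 counts in wild-type livers 1 to 3 and 19, 12 and 4 counts in knockout livers 1 to 3. These counts correspond to 0.420, 0.920 and 1.75 CPM and to 0.727, 0.510 and 0.170 CPM. Wild-type liver 1 lies below knockout livers 1 and 2. The fitted effect of -1.12 ± 0.63 (log2 ± SE, edgeR adjusted p = 0.992) had the largest size of the 8 and also the largest SE, and it ran from -1.59 to -0.51 with 1 library left out. In brain at most 3 counts were found in a library, which is the floor used here, so no knockout effect is given there.

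Angptl4 (chromosome 17, 33773750 to 33781830, minus strand) encodes a secreted inhibitor of lipoprotein lipase. Its liver levels spread most among the 7 genes above 1 CPM, with a coefficient of variation of 44.5% over the 6 livers. They were 32.7, 89.1 and 126 CPM in the wild type and 53.8, 65.5 and 111 CPM in the knockout. The wild type held both extremes, a 3.86-fold range within a genotype, and the fitted effect was -0.11 ± 0.55 (log2 ± SE, edgeR adjusted p = 0.999). In brain the levels were 0.831, 1.38 and 1.11 CPM in the wild type and 1.25, 1.48 and 1.45 CPM in the knockout. The fitted effect in brain was 0.34 ± 0.30 (edgeR adjusted p = 1.000), and it ran from 0.17 to 0.54 with 1 library left out.

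Vnn1 (chromosome 10, 23894688 to 23905343, plus strand) encodes vanin 1, a pantetheinase that releases cysteamine. Liver levels were 22.9, 31.9 and 37.4 CPM in the wild type and 32.2, 21.8 and 31.3 CPM in the knockout. Wild-type liver 1 and knockout liver 2 were the low libraries, and the groups overlap. The fitted effect was -0.11 ± 0.22 (log2 ± SE, edgeR adjusted p = 0.992). The wild-type brains gave 2, 4 and 3 counts and the knockout brains 1, 2 and 6.

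Knockout and wild-type libraries were then tested against each other, 1 tissue at a time. In liver, 0 of the 8 members passed an adjusted p under 0.05 by the edgeR quasi-likelihood test, where 0.0% of all 15329 genes tested were called. In brain, 0 of the 6 members tested passed, again with 0.0% of 18075 genes called; Fgf21 and Vnn1 did not pass the filter on low counts there. The DESeq2 Wald test also called 0 members in either tissue, and no member had an unadjusted edgeR p under 0.05 without pairing. With the replicate number as a block, which pairs same-numbered livers, the unadjusted p was 0.0424 for Acadm and 0.0429 for Ppara, and the edgeR adjusted p was 0.765 for both. Acadm and Ehhadh were lower in the knockout in 3 of 3 same-numbered liver pairs, and Ppara in 2 of 3. Without the block, the smallest unadjusted edgeR p was 0.118 in liver (Fgf21) and 0.238 in brain (Cpt1a). Over all genes, 536 in liver and 122 in brain had an unadjusted p under 0.05, and the DESeq2 Wald test called 10 and 0 genes. No member had genotype groups that did not overlap, a pattern seen in 9.85% of all genes tested in liver and 4.32% in brain.

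All 8 members had a fitted value below 0 in liver, against 48.7% of all genes tested, but none of these values passed the test and several rest on single libraries. Without knockout liver 2 the fitted log2 fold change of Ehhadh was 0.015 and that of Vnn1 was 0.044. Without wild-type liver 3 it was 0.031 for Cpt1a, 0.33 for Angptl4 and 0.053 for Vnn1, and without knockout liver 1 it was 0.089 for Angptl4. The red blood cell markers had values above 0 in knockout liver for 5 of 5 genes (median 0.95, 2 with an unadjusted p under 0.05, none called by edgeR). Their summed level was 79.7 to 113 CPM in wild-type and 103 to 120 CPM in knockout livers, and their part in the members' values was not tested. Kupffer cell markers were above 0 for 7 of 7 genes (median 0.52), microglia markers for 6 of 6 (0.58), endothelium markers for 6 of 7 (0.14) and cholangiocyte markers for 5 of 6 (0.20), none called by edgeR, and hepatocyte markers were below 0 for 6 of 8 (-0.09). Their part was not tested either. The number of members below 0 was 6 of 8 without knockout liver 2 and 5 of 8 without wild-type liver 3. In brain, 4 of the 6 members tested were below 0, and Ehhadh turned from -0.048 to 0.017 without wild-type brain 1 and to 0.076 without knockout brain 3.

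**Figure D2:**
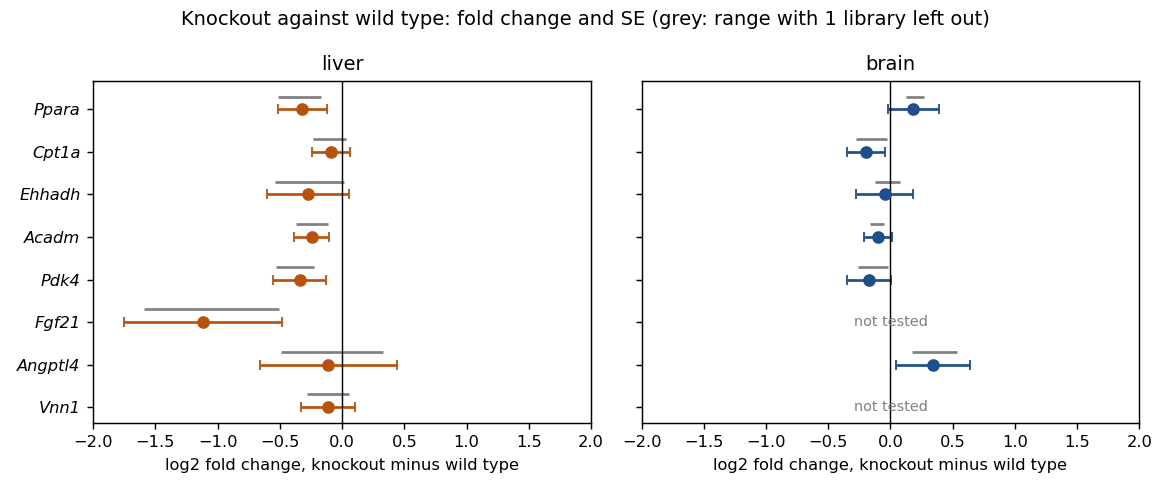
Log2 fold change of knockout minus wild type for the 8 genes in liver (left) and brain (right); points with bars are the edgeR estimate ± SE and grey lines give the range when 1 library is left out. All 8 points lie below 0 in liver, from -1.12 for Fgf21 to -0.09 for Cpt1a, and the grey lines of Cpt1a, Ehhadh, Angptl4 and Vnn1 cross 0.

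Whether the effect in liver differed from that in brain was tested with an interaction term in a fit of the 12 libraries. For 0 of the 8 members, and for 0.0% of 20141 genes, did it pass an adjusted p under 0.05 by edgeR. Over all genes, 489 had an unadjusted p under 0.05, and the DESeq2 Wald test called 1 gene and 0 members. Ppara came closest, with a liver minus brain effect of -0.53 ± 0.27 (log2 ± SE, unadjusted p = 0.0789, edgeR adjusted p = 1.000), from a liver effect of -0.32 and a brain effect of 0.18.

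The members other than Pdk4 had larger fitted differences between the tissues than between the genotypes. Fold changes here come from a fit over brain and liver libraries together, so they use a TMM scale common to both tissues, and negative values mean a lower level in brain. In the wild type, 6 of the 7 members tested were higher in liver by edgeR, where 34.7% of 18850 genes were called in that direction. In the knockout libraries, which that fit did not use, the same 6 of 7 were higher in liver, against 35.2% of 18785 genes. Among these 6 the fold was smallest for Acadm and Cpt1a, the mitochondrial genes, and larger for the receptor and for the peroxisomal, secreted and pantetheinase genes. The bulk samples do not tell fewer cells of a type from less RNA per cell.

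Ppara had a log2 fold change of -7.03 ± 0.25 in the wild type (edgeR adjusted p = 2.06e-07) and -6.53 ± 0.16 in the knockout. Ehhadh had -7.82 ± 0.21 (edgeR adjusted p = 7.54e-08) and -7.60 ± 0.42. Angptl4 had -7.07 ± 0.59 (edgeR adjusted p = 1.67e-05) and -6.61 ± 0.33. For each of them all 6 brain libraries lay below all 6 liver libraries. Cpt1a had -4.53 ± 0.21 (edgeR adjusted p = 6.68e-07) and -4.63 ± 0.13, and Acadm had -4.19 ± 0.12 (edgeR adjusted p = 8.78e-08) and -4.05 ± 0.17.

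For Vnn1 and Fgf21 the brain counts were at or near the floor of 3 counts per library. On the common TMM scale, the summed counts of Vnn1 gave a liver level 327 times that of brain in the wild type (95% exact interval 172 to 715, counting error only) and 277 times in the knockout (146 to 607). With library totals these ratios were 182 and 153. Fgf21 summed to 80 counts in wild-type liver and 1 in wild-type brain, a ratio of 99.0 (17.3 to 3957), or 55.2 with library totals. In the knockout it summed to 35 and 4 counts, a ratio of 10.4 (3.73 to 40.4), or 5.74 with library totals. Vnn1 was called in both tissue fits. Fgf21 did not pass their filter on low counts; with no filter beyond 1 count, or with all 12 libraries in one fit, it was tested and called higher in liver (edgeR adjusted p from 0.000146 to 0.000240 in the wild type and from 0.00734 to 0.0110 in the knockout).

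Pdk4 was the member that did not pass. Its log2 fold change of brain minus liver was -0.05 ± 0.23 in the wild type (edgeR adjusted p = 0.849) and 0.11 ± 0.17 in the knockout (edgeR adjusted p = 0.568). On the common scale it measured 6.84 ± 1.15 CPM in wild-type brain and 7.12 ± 1.72 CPM in wild-type liver (SD, n = 3). This result depends on the scaling. With library totals in place of TMM, the median of all genes moved by 0.84 towards brain in the wild type and by 0.88 in the knockout, and the share of calls that were higher in liver went from 44.2% to 25.6% and from 44.7% to 24.9%. Pdk4 moved with that shift to 0.79 (edgeR adjusted p = 0.0130) and 0.99 (edgeR adjusted p = 0.00140) and was then called higher in brain, while the other 6 members tested remained higher in liver.

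**Figure D3:**
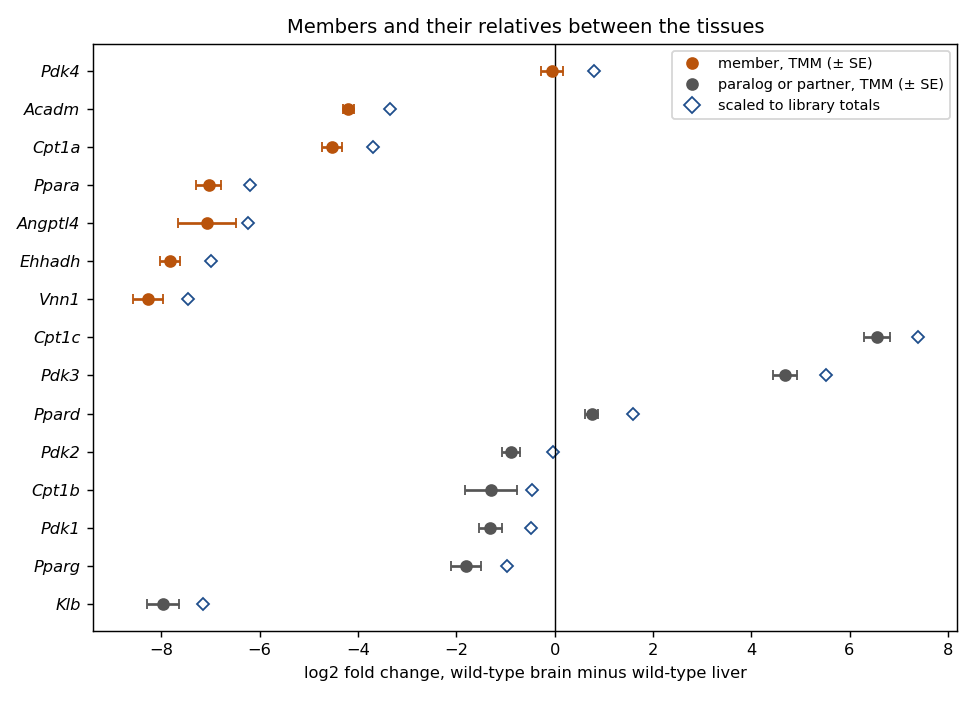
Log2 fold change of wild-type brain minus wild-type liver for the 7 members tested (orange) and 8 of their paralogs or partners (grey), with TMM scaling ± SE, and for the same genes with library totals (blue diamonds). Members other than Pdk4 lie between -8.27 (Vnn1) and -4.19 (Acadm), the values of Vnn1 and Klb rest on 9 and 15 summed brain counts near the floor, Cpt1c and Pdk3 lie at 6.56 and 4.69, and library totals move every gene to the right by a similar amount.

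Several relatives of the members had the opposite direction or a smaller fold. Cpt1c, the brain form of the carnitine palmitoyltransferase family, had a log2 fold change of 6.56 ± 0.26 (brain minus liver, edgeR adjusted p = 3.16e-07) and averaged 69.8 CPM in wild-type brain and 0.399 CPM in wild-type liver. The muscle form Cpt1b was low in both tissues (-1.29 ± 0.54, edgeR adjusted p = 0.0571), and it passed under 4 alternatives, with -2.18 without wild-type brain 1. Pdk3, another pyruvate dehydrogenase kinase, was higher in brain at 4.69 ± 0.24 (edgeR adjusted p = 1.04e-06). Pdk1 (-1.31 ± 0.23, edgeR adjusted p = 0.00110) and Pdk2 (-0.88 ± 0.18, edgeR adjusted p = 0.00275) were higher in liver, but with library totals they gave -0.48 and -0.03 and did not pass.

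Among the other PPAR receptors, Ppard was higher in brain (0.75 ± 0.13, edgeR adjusted p = 0.00104) and Pparg higher in liver (-1.80 ± 0.30, edgeR adjusted p = 0.000882). Klb, the co-receptor through which FGF21 acts, was higher in liver (edgeR adjusted p = 3.75e-07), at 40.7 CPM against 0.282 CPM in the wild type; its 15 summed brain counts are near the floor, so no fold is given. Angptl8 and Vnn3, relatives of Angptl4 and Vnn1, summed to 0 and 1 counts over the wild-type brain libraries and averaged 26.9 and 46.8 CPM in wild-type liver, so no fold is given.

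The wider pathway was followed in 12 lists of 133 genes, which do not include the members. In the wild-type tissue contrast 131 of them were tested, 97 were higher in liver and 17 higher in brain by edgeR, beside 34.7% and 43.9% of all genes. In the knockout contrast 98 and 18 of 132 were, beside 35.2% and 43.5%. As given above for all genes, library totals lower the share of calls that are higher in liver. All 18 genes of mitochondrial beta-oxidation were higher in liver, with a median log2 fold change of -4.10, against 0.21 for all genes tested. Its examples are Acaa2, the last thiolase of the spiral (-6.74 ± 0.20), and Acads, the short-chain dehydrogenase (-5.51 ± 0.20). Of 17 peroxisomal genes, 15 were higher in liver, among them Scp2, a sterol carrier with thiolase activity (-6.64 ± 0.19). Acaa1b, a peroxisomal thiolase, averaged 643 CPM in wild-type liver and 0.245 CPM in wild-type brain, near the floor, so no fold is given.

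In the carnitine list 7 of 9 genes were higher in liver, such as Crot (-5.64 ± 0.17) and Cpt2 (-5.40 ± 0.30), and Cpt1c was the 1 gene higher in brain. In the ketone body list 5 of 7 were higher in liver. The 1 gene higher in brain was Oxct1 (5.06 ± 0.12), which encodes the mitochondrial transferase that activates acetoacetate for oxidation and is known to be low in liver. In the list of fatty acid uptake, binding and activation, 10 of 18 were higher in liver, such as the transporter Slc27a2 (-8.90 ± 0.26), and 6 higher in brain, such as Acsl6 (9.09 ± 0.37) and Fabp7 (2.83 ± 0.28). Fabp1, a known PPAR alpha target that carries fatty acids in liver, was listed at 0 in all brain libraries and at 608 to 1121 CPM in liver.

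In the list of receptor partners and coregulators, 5 of 16 were higher in liver and 4 higher in brain, which is no more than the 34.7% and 43.9% of all genes. Rxra, which encodes the partner of PPAR alpha, had -4.69 ± 0.17, and Creb3l3, a liver transcription factor that works with PPAR alpha on Fgf21, averaged 199 CPM in wild-type liver and 0.365 CPM in wild-type brain. Ppargc1a, a coactivator of the receptor, was higher in brain (1.64 ± 0.21, edgeR adjusted p = 0.000200), as was Ncoa1 (1.38 ± 0.11). Of the FGF21 receptor list, Fgfr1 was higher in brain (2.54 ± 0.26). The call of Fgfr2 (-0.72 ± 0.27, edgeR adjusted p = 0.0393) was lost with library totals, where its value was 0.13, with no filter beyond 1 count, and without wild-type brain 1 or any 1 of the 3 wild-type livers (edgeR adjusted p from 0.0510 to 0.107).

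In the knockout comparisons no pathway gene was called by edgeR (0 of 129 tested in liver, 0 of 111 in brain). In liver 8 of the 129 (6.20%) had an unadjusted edgeR p under 0.05, beside 3.50% of all 15329 genes tested. Among the 8 were Coasy, the last enzyme of coenzyme A synthesis (-0.24 ± 0.08, unadjusted p = 0.0218, edgeR adjusted p = 0.992), and Ucp2, a mitochondrial carrier (0.48 ± 0.17, unadjusted p = 0.0222, edgeR adjusted p = 0.992). Coasy measured 83.4, 79.9 and 83.2 CPM in wild-type livers and 68.4, 64.7 and 75.4 CPM in knockout livers. Its groups do not overlap, as was the case for 14 of the 129 pathway genes, beside 9.85% of all genes, counting either direction. Of the 14, 12 were lower in the knockout, and the share by direction over all genes was not counted.

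In brain the smallest unadjusted p belonged to Lpl, lipoprotein lipase, the enzyme that ANGPTL4 inhibits (0.66 ± 0.23, unadjusted p = 0.0259, edgeR adjusted p = 1.000), to Slc16a1, a carrier of ketone bodies and lactate (-0.36 ± 0.15, unadjusted p = 0.0496), and to Slc27a2 (-0.66 ± 0.28, unadjusted p = 0.0529). Lpl measured 7.36, 11.1 and 12.4 CPM in wild-type brains and 15.2, 13.8 and 19.5 CPM in knockout brains. The highest value, in knockout brain 3, came from a library in which the adipocyte markers Adipoq and Cfd reached 1.03 and 5.45 CPM. Both were at 0 in the other 5 brain libraries, and the summed level of all 5 adipocyte markers was 9.57 CPM there and 0.408 to 0.827 CPM elsewhere. Vnn1 and Fgf21 also had their highest brain counts in that library, and the part of the adipocyte signal in these values was not tested.

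For the interaction, the smallest unadjusted p belonged to Coasy (-0.29 ± 0.13, unadjusted p = 0.0525), Cidec (unadjusted p = 0.0800) and Slc27a2 (0.54 ± 0.29, unadjusted p = 0.0826). Cidec, a lipid droplet gene, was at 0 in wild-type brain and averaged 0.464 CPM in knockout brain, so no fold is given. Its only brain counts came from knockout brain 3, the library with the adipocyte markers, and its sign turned without that library.

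Many of the pathway genes had their lowest liver value in a single library, knockout liver 2. That library is also part of the knockout group, and differences between livers were not tested against the difference between genotypes. Of the 125 pathway genes with a mean of at least 1 CPM in liver, 73 (58.4%) had their lowest value in knockout liver 2, where 22.9% of all 13327 genes at that level did. This held for 18 of 18 genes of mitochondrial beta-oxidation, 12 of 17 peroxisomal genes and 5 of 7 genes of omega-oxidation, but for only 2 of 16 receptor partners and coregulators and 2 of 8 genes of the carnitine list. Of the 7 members above 1 CPM, 4 were lowest there: Ehhadh, Acadm, Pdk4 and Vnn1. The other 3 were lowest in wild-type liver 1. Wild-type liver 3 held the highest value of 6 of the 7 members (85.7%), beside 17.3% of all genes.

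The size of the difference in knockout liver 2 varied by gene. Cyp4a14, a fatty acid omega-hydroxylase and a classical PPAR alpha target, measured 2.85 CPM in knockout liver 2 and 66.9 to 438 CPM in the other livers. Its relative Cyp4a10 measured 24.0 CPM against 181 to 397 CPM. Fabp1 stood at 608 CPM against 1079 to 1121 CPM. Cpt1a (310 CPM) and Ppara (120 CPM) were in the middle of the livers or near their low end and did not stand apart. Cyp4a10 carries fractional counts in every liver library, and near-identical copies of it exist, so its level is uncertain. Cyp4a10, Cyp4a14 and Fabp1 were picked for this description after their values were seen.

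With knockout liver 2 in the fit, 94 of 129 pathway genes (72.9%) had a value below 0 in the knockout, beside 48.7% of all genes, and the median log2 fold change of the pathway genes was -0.11 beside 0.01. Without that library the number was 63 of 129 (48.8%), beside 49.1% of all genes, and the median was 0.00. The mitochondrial list went from 18 of 18 to 12 of 18 below 0, and its median from -0.15 to -0.06. The peroxisomal list went from 15 of 17 to 12 of 17, and its median from -0.15 to -0.09. The direction of the pooled pathway genes in liver thus rested on knockout liver 2, while these 2 lists stayed mostly below 0. With any other liver left out, 86 to 96 of the 129 pathway genes were below 0. In brain, where none of these genes was called either, 72 of 111 pathway genes (64.9%) had a value below 0, beside 51.7% of all genes, with a median of -0.05. Of the mitochondrial genes 16 of 18 did, with a median of -0.12. With 1 brain library left out the pathway count lay between 66 and 73 of 111 and the mitochondrial count between 14 and 18 of 18. The mitochondrial median lay between -0.22 (without wild-type brain 2) and -0.06 (without wild-type brain 3). In the same comparison the oligodendrocyte markers had values below 0 for 6 of 6 genes (median -0.52) and the choroid plexus and ependyma markers for 5 of 6 (median -0.27), none of them called, and their part in these values was not tested. In knockout liver 2 the Kupffer cell markers were highest for 7 of 7 genes, with a summed level of 316 CPM against 125 to 171 CPM in the other livers, and Clec4f among them measured 96.3 CPM against 38.7 to 52.6 CPM. The summed hepatocyte markers were lowest there, at 51584 CPM against 56087 to 76116 CPM, with 3 of 8 genes at their lowest and 2 at their highest. One of the latter was Fgb, a fibrinogen chain, at 6736 CPM against 3418 to 3830 CPM. The cholangiocyte list summed to 117 CPM against 25.5 to 40.0 CPM, of which Spp1 made 102 CPM. None of the 7 Kupffer cell markers was at 0 in any liver group. The part of these cell types in the lower levels was not tested.

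**Figure D4:**
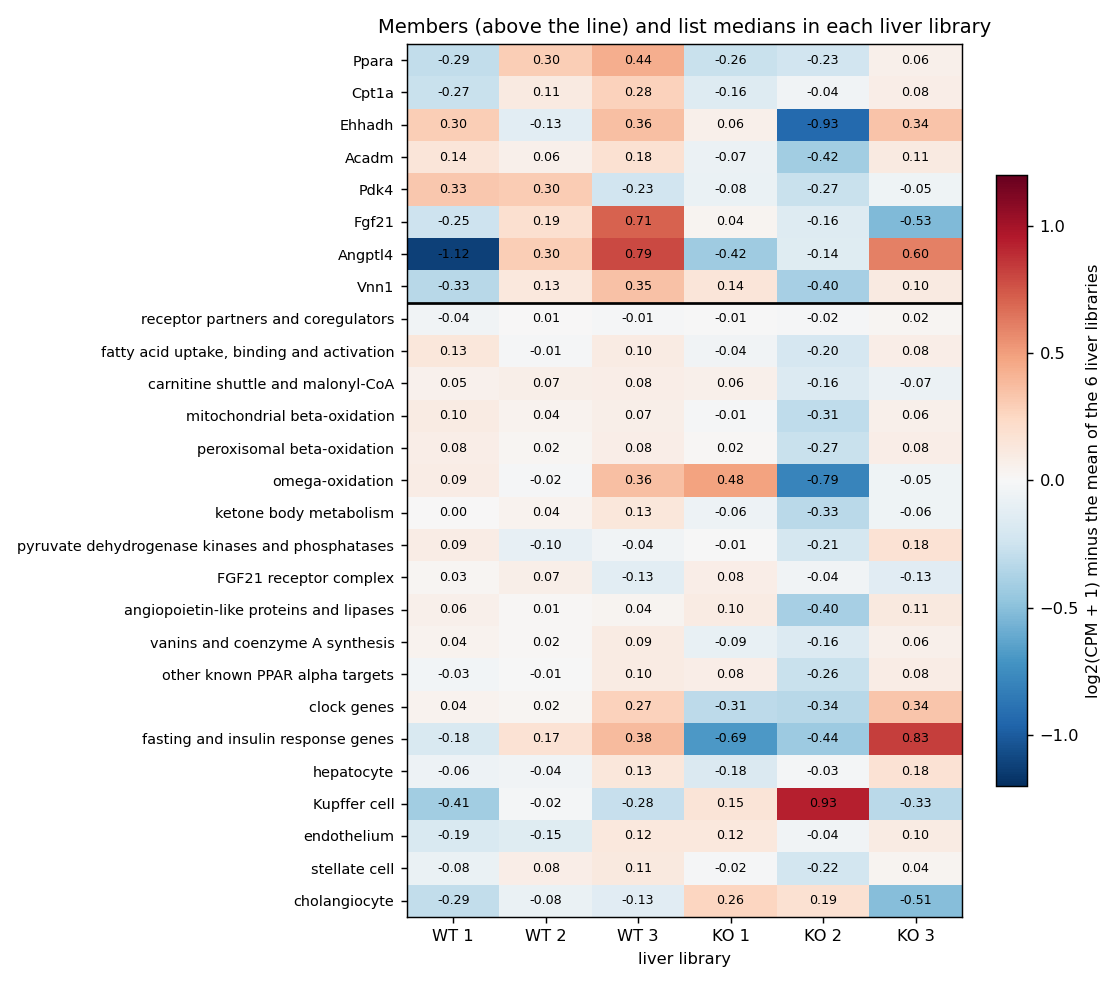
Each cell gives log2(CPM + 1) of a gene, or the median over a list, minus its mean over the 6 liver libraries; the 8 members are above the line and the pathway, context and marker lists below it. Knockout liver 2 has the lowest Ehhadh (-0.93) and Acadm (-0.42), a mitochondrial beta-oxidation median of -0.31 and a Kupffer cell median of 0.93, whereas Angptl4 is lowest in wild-type liver 1 (-1.12).

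The members were also compared with each other across livers. Over the 6 liver libraries, 21 pairs of the 7 members above 1 CPM were compared on log2(CPM + 1). No pair passed after adjustment over the 21 (two-sided exact permutation test), 4 pairs had an unadjusted p under 0.05, 17 had a positive r and the median r was 0.47. Cpt1a and Angptl4 had r = 0.962 (exact permutation p = 0.00556, adjusted p = 0.0729, rho = 0.943 with p = 0.0167), and r = 0.927 without the 2 libraries farthest from the median of Cpt1a. Ppara and Cpt1a had r = 0.934 (exact permutation p = 0.00694, adjusted p = 0.0729, rho = 1.00 with p = 0.00278), and 0.880 without 2 libraries.

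Ppara and Angptl4 had r = 0.844 (exact permutation p = 0.0431, adjusted p = 0.226, rho = 0.943 with p = 0.0167), and 0.894 without 2 libraries. Ehhadh and Acadm had r = 0.945 (exact permutation p = 0.0278, adjusted p = 0.194, rho = 0.886 with p = 0.0333) and 0.964 without 2 libraries. Ppara and Ehhadh had r = 0.32 only (exact permutation p = 0.585, adjusted p = 0.842, rho = 0.314 with p = 0.564). Wild-type liver 1 had the lowest Ppara, Cpt1a and Angptl4 and yet 324 CPM of Ehhadh and 193 CPM of Acadm, near the top of the livers. Each genotype has 3 livers, too few for a value within it. The permutation treats the 6 livers as exchangeable, although same-numbered livers of both genotypes deviated together over all genes, so these p-values may be too small.

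Genes that follow feeding and the time of day also differed between the livers. The median log2 deviation of the fasting and insulin list was -0.18, 0.17 and 0.38 in wild-type livers 1 to 3 and -0.69, -0.44 and 0.83 in knockout livers 1 to 3. For the clock list the wild-type livers gave 0.04, 0.02 and 0.27 and the knockout livers -0.31, -0.34 and 0.34. The clock list holds genes of opposite phase, and 4 of its 14 genes were at their lowest in wild-type liver 3, so its median describes little. Of 9 fasting and insulin genes, 6 were highest in knockout liver 3 and 0 in wild-type liver 3. The single genes that follow were chosen after their values were seen. Pck1, a gluconeogenic gene raised in fasting, measured 772 CPM in wild-type liver 1 and 866 CPM in knockout liver 1, but 1873 to 2109 CPM in the other livers. The libraries numbered 1 were also the 2 lowest of the 6 for Angptl4, Ppara and Cpt1a. Arntl, a clock gene, measured 2.45 and 2.89 CPM in wild-type and knockout liver 3 and 8.64 to 14.2 CPM in the rest, while Per1 measured 64.1 and 71.6 CPM in the libraries numbered 3 and 9.45 to 26.4 CPM in the rest. These libraries also held the 2 highest values of Angptl4 (126 and 111 CPM) and of Ehhadh (338 and 333 CPM), but of no other member. Fgf21 had both its highest and its lowest liver value in them (1.75 and 0.170 CPM). Pdk4 was highest in wild-type livers 1 and 2 (6.08 and 5.96 CPM). Lpin1, a coactivator of PPAR alpha, was at 354 and 674 CPM in the libraries numbered 3 and at 67.9 to 123 CPM elsewhere. Plin4, a lipid droplet gene, was at 34.6 and 27.1 CPM in them and at 5.87 to 10.3 CPM in the rest. Each number has 1 library of each genotype. The part of feeding or time of day in the members' levels was not tested.

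In brain the spread of the members at or above 1 CPM differed by gene. Over the 6 brain libraries the coefficient of variation was 8.28% for Acadm, 9.25% for Ppara, 11.6% for Ehhadh, 15.2% for Pdk4, 16.0% for Cpt1a and 19.7% for Angptl4. Over the 6 livers it was larger for each of them but Cpt1a (13.7%). Cpt1a and Pdk4 were highest in wild-type brain 3, at 31.7 and 11.1 CPM. In that library the oligodendrocyte markers were highest for 6 of 6 genes, with a summed level of 7330 CPM against 2125 to 3912 CPM in the other brains. The part of the oligodendrocyte signal in these 2 values was not tested. Ttr, which is made in the choroid plexus as well as in liver, ranged from 0.275 to 583 CPM over the brain libraries, while Alb reached at most 0.297 CPM.

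The genes most like each member in profile over the 12 libraries were found by the root mean square difference of log2(CPM + 1) values centred on each gene's mean, among 20141 genes. Acadm had the closest neighbours, Abcd3, a peroxisomal fatty acid transporter (0.08), and Decr1, a mitochondrial enzyme for unsaturated fatty acids (0.09). Ppara was nearest to the liver transcription factors Foxa3 (0.14) and Nr1i2 (0.16), and Cpt1a to Prkd3 (0.13) and Gdf2 (0.14). Vnn1 was nearest to Oit3 (0.12) and Soat2 (0.17), Pdk4 to Trappc4 (0.12) and Gm42717 (0.14), and Ehhadh to Gm4952 (0.20) and Acsm3 (0.20). Angptl4 had no neighbour as close, with Kyat3 at 0.31 and Foxa3 at 0.35. The distance covers libraries of both tissues, and its parts between and within the tissues were not separated.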

How the data were processed

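Total RNA was sequenced from 12 libraries. Trimming with cutadapt, alignment with STAR and the mm10 genome are named in the submitters' processing notes; the counting program, its annotation and its use of strand are not given in the sources used here. The authors deposited expected counts per gene, not normalized; 5.06% to 5.71% of values per library were fractional, but those of the 8 members were whole. All 55450 gene identifiers matched GENCODE M21 (GRCm38), from which coordinates and exon lengths come; upstream windows come from RefSeq (GRCm38.p6).

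Counts were rounded and tested with edgeR 4.0.16 (R 4.3.3): TMM, filterByExpr (minimum count 10, total 15), robust quasi-likelihood F-test, Benjamini-Hochberg over all genes, threshold 0.05. Each contrast used its own 6 libraries and the interaction all 12. SE is the absolute log2 fold change over the square root of F. CPM use TMM within a tissue unless a common scale is named. The floor is 3 counts per library (0.110 to 0.202 CPM), and intervals and floors cover counting error only. The 12 replicate pairs within groups differed by 27.2 to 228 times the degrees of freedom in a chi-square comparison, so none was treated as a repeat deposit of another library; this does not show that they are separate mice. The fits were tested on simulated counts. In liver, same-numbered wild-type and knockout libraries (numbers from the titles) deviated together (r = 0.333, 0.356 and 0.396 over 13327 genes); in brain (0.650, 0.621 and -0.019) they did not all do so.

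Members and lists were chosen with earlier results of these data known. Named were the members, per list up to 2 called genes in each direction, paralogs, with none called the 3 smallest p, and the 2 nearest profiles; others were chosen after their values were seen. Alternatives were DESeq2 1.42.0 size factors or Wald test, library totals, other filters, robust estimation off, 1 fit of 12 libraries, the replicate block, each library left out and, for correlations, a pseudocount of 0.1 instead of 1 CPM. Some genes that the naming rule picks are not reported here.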

Additional observations from a re-analysis of the deposited data

How the results depend on the processing

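The count of members called kept its value, or stayed within 1.5 times of it, under every alternative run. The count of all genes called in liver went from 0 to 10 with the DESeq2 Wald test, to 4 with no filter beyond 1 count and to 2 with the replicate block, and lay between 0 and 1 with a library left out. For the interaction it went from 0 to 1 with the Wald test and to 2 with the replicate block. With the block, unadjusted p-values in liver were 0.0424 for Acadm and 0.0429 for Ppara (edgeR adjusted p = 0.765 for both), and the sign of Angptl4 turned to 0.018; the pairing by replicate number changed no member call in the genotype comparisons or the interaction.

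With a library left out, liver log2 fold changes ran from -0.23 to 0.031 for Cpt1a, from -0.54 to 0.015 for Ehhadh, from -0.49 to 0.33 for Angptl4 and from -0.29 to 0.053 for Vnn1. In brain Ehhadh ran from -0.13 to 0.076. Interaction values ran from -0.060 to 0.21 for Cpt1a, from -0.50 to 0.048 for Ehhadh, from -0.59 to 0.73 for Vnn1 and from -5.82 to 0.67 for Cidec. Between the wild-type tissues Pdk4 ran from -0.26 to 0.042; library totals gave 0.79 for Pdk4 and 0.13 for Fgfr2. Except where stated, the cause was not tested. The SE of the liver effect ran from 0.14 for Acadm to 0.63 for Fgf21, which had only 4 to 45 counts per library.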
